A study of Caenorhabditis elegans with 18 samples.

Results

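The fatty acid elongases of Caenorhabditis elegans were examined here, as the 9 genes elo-1 to elo-9. They were found as the probe sets whose single gene symbol was one of these names, and each of the 9 genes had 1 probe set among the 28387 probe sets and 25478 named genes of the table. RNA came from whole worms of the wild-type laboratory strain N2, all of them kept for 48 h at 20 °C in soil polluted with lead (2700 mg/kg), with zinc (4200 mg/kg) and with cadmium (310 mg/kg). There were 6 groups of 3 samples: soil amended with nZVI, fine particles of zero-valent iron that take up dissolved metals, and control soil without them, each at 0 days, 14 days and 4 months. The labels do not say from which event these times are counted, no group was kept in soil free of the metals, and worms entered the soil as last-stage larvae and young adults at every time. Nothing in the labels says that the 3 samples of a group came from separate cultures, so the p-values measure the spread between these arrays, which may be technical.

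Elongases catalyse the first and slowest step of a cycle that lengthens fatty acids in the endoplasmic reticulum: they join an acyl-CoA to carbons from malonyl-CoA. A reductase, a dehydratase and a second reductase complete each round. In C. elegans the cycle serves separate routes. ELO-1 and ELO-2 lengthen straight-chain fatty acids on the way to the long polyunsaturated fatty acids, with ELO-2 also acting on palmitic acid, and ELO-5 and ELO-6 make the monomethyl branched-chain fatty acids that the worm needs for growth and for its sphingolipids. The other members, elo-3, elo-4, elo-7, elo-8 and elo-9, are placed in the family by sequence, and their products are less well known.

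Values below are log2 signals per probe set, already background-corrected and normalised between arrays by the authors, and a difference is the nZVI group mean minus the control group mean on that log2 scale. Differences were tested with limma over all 28387 probe sets with Benjamini-Hochberg adjustment, and "rose" or "fell" is used only where the adjusted p was under 0.05. Arrays of 1 group correlated at 0.97 to 0.996. Control arrays 1 and 3 of 4 months had narrower distributions than the rest, with interquartile ranges of 3.803 and 3.702 against at least 4.072 elsewhere, so the calls at 4 months are also given without them. The lowest limma array weights were 0.323 for control array 2 of 4 months, 0.332 for nZVI array 2 of 14 days and 0.43 for control array 1 of 4 months. Without both narrow arrays, control soil at 4 months is therefore left with the array of the lowest weight, and 186 probe sets in all were called, against 2009.

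At 0 days 4 of the 9 elongases rose in nZVI soil, elo-2, elo-5, elo-6 and elo-9, and none fell. Over all probe sets 8.22% rose and 7.74% fell in this comparison. At 14 days elo-5 and elo-6 rose, 2 of 9, where 3.60% of all probe sets rose. That percentage came from 1023 probe sets that rose and 1529 that fell, and centring each array on its median made these 1299 and 1270. At 4 months elo-5 and elo-8 rose, again 2 of 9, against 4.77% of all probe sets. The shares of all probe sets that fell were 5.39% at 14 days and 2.30% at 4 months. No elongase fell in nZVI soil against control soil at any time. Without both narrow control arrays of 4 months none of the 9 was called in limma at that time: the differences were all above 0, from 0.10 for elo-3 to 0.82 for elo-4, and their lowest adjusted p was 0.66. The others were 0.19 for elo-1, 0.22 for elo-2, 0.46 for elo-5, 0.35 for elo-6, 0.42 for elo-7, 0.44 for elo-8 and 0.17 for elo-9.

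Counting arrays without a test gave a wider group. All 3 nZVI values lay above all 3 control values for 5 elongases at 0 days (elo-2, elo-4, elo-5, elo-6 and elo-9), where 17.1% of all probe sets did so. The same was seen for 3 at 14 days (elo-2, elo-5 and elo-6, 13.8% of all probe sets). At 4 months it was seen for 8 (all but elo-6, 12.2% of all probe sets). Control arrays 1 and 3 of that time are the narrow ones, and some margins were small. The nearest nZVI and control arrays read 8.71 and 8.69 for elo-3, 4.38 and 4.33 for elo-7, and 8.68 and 8.61 for elo-2. Only elo-2 and elo-5 were higher in nZVI soil without overlap at every time, as were 644 probe sets in all, 2.27%. The median difference over the 9 genes was 0.81, 0.52 and 0.64 log2 units at 0 days, 14 days and 4 months, while the median over all probe sets was -0.01, 0.04 and -0.03.

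**Figure D1:**
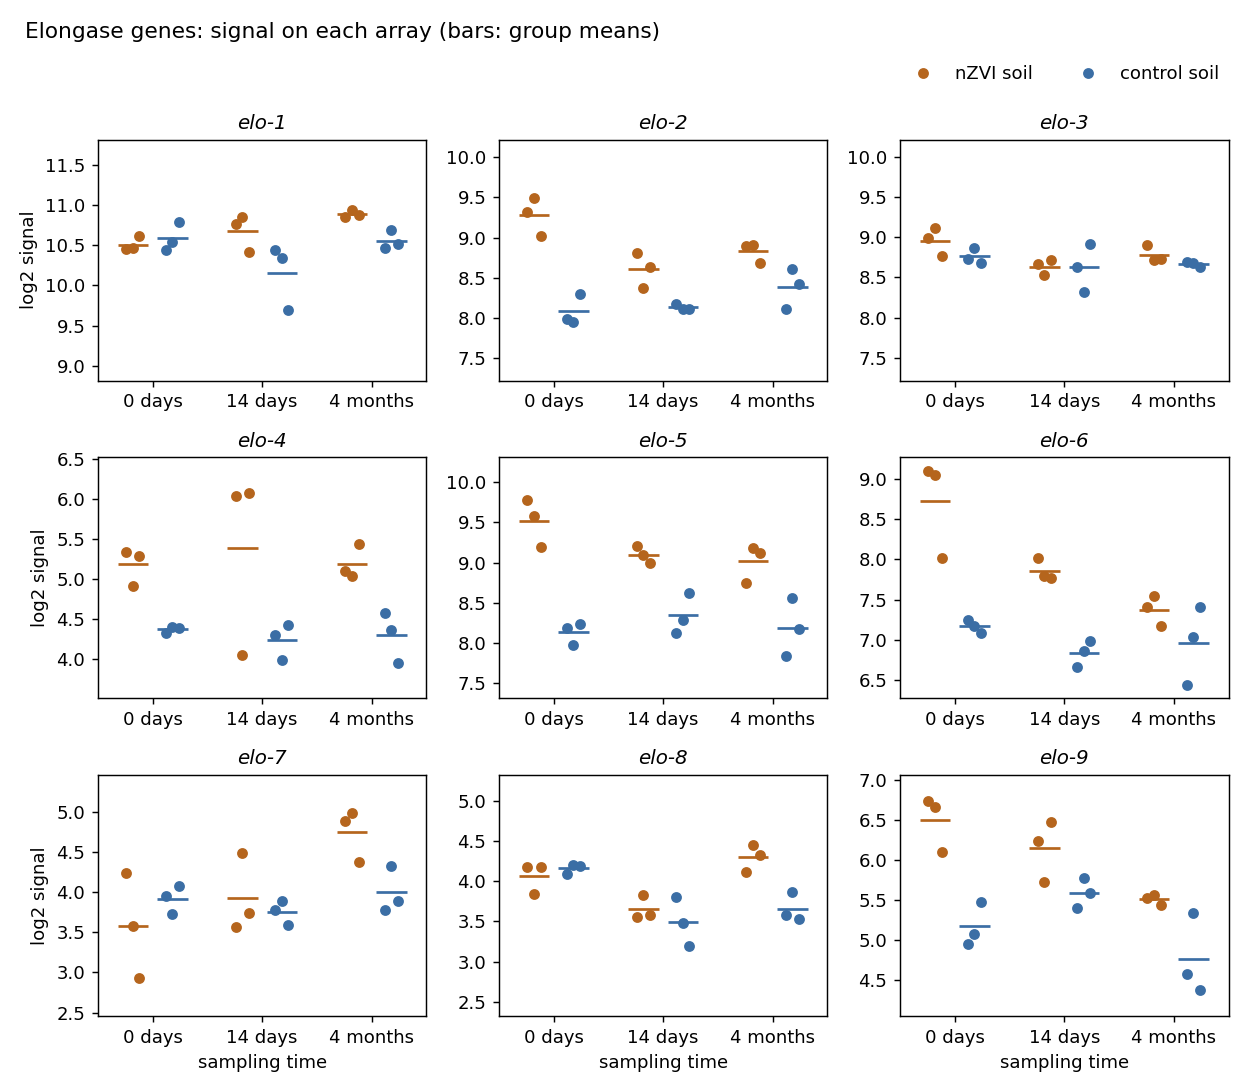
Log2 signal of each elongase on each of the 18 arrays, by sampling time, with nZVI soil in brown and control soil in blue; bars are group means of 3 arrays and every panel spans the same number of log2 units. The brown points of elo-2 and elo-5 lie above the blue points at every time, and elo-4 at 14 days has 1 brown point, at 4.05, down among the control values.

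Of the elongases of the branched-chain route, elo-5 was higher in nZVI soil at all 3 times. ELO-5 is needed to make the shorter and the longer of the worm's main iso-branched fatty acids. At 0 days the elo-5 log2 signals were 9.78, 9.58 and 9.19 in nZVI soil, against 8.19, 7.97 and 8.24 in control soil. The lowest nZVI array thus lay well above the highest control array. The difference was 1.39 ± 0.20 log2 units (SE), 2.62-fold, with an adjusted p of 0.000107 by limma.

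At 14 days elo-5 read 9.21, 9.10 and 8.99 in nZVI soil and 8.13, 8.29 and 8.62 in control soil, and at 4 months 8.75, 9.18 and 9.12 in nZVI soil and 7.84, 8.56 and 8.17 in control soil. The groups did not overlap at either time, but the gap between the nearest arrays was narrower than at 0 days. The differences were 0.75 ± 0.20 (adjusted p = 0.0211) and 0.83 ± 0.20 (adjusted p = 0.0172, limma). These calls did not hold without some single arrays. At 14 days the adjusted p was 0.101, 0.0788 and 0.0903 without control array 1, control array 2 and nZVI array 1, within a range of 0.000154 to 0.101 over the alternative settings. At 4 months it was 0.0925, 0.0663, 0.0782 and 0.0721 without control array 1, control array 3, nZVI array 2 and nZVI array 3. Without both narrow control arrays of 4 months the difference was 0.46 with an adjusted p of 0.677, the upper end of the range over settings, which began at 0.00236.

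The second enzyme of this route, ELO-6, makes the longer of these branched-chain products. The elo-6 signals were 9.10, 9.05 and 8.02 in nZVI soil and 7.24, 7.17 and 7.09 in control soil at 0 days. Array 3 of nZVI soil lay about halfway between the other nZVI arrays and the controls, without reaching them. The difference of 1.56 ± 0.25 log2 units, 2.94-fold (adjusted p = 0.000416, limma), was the highest of the 9 genes at that time.

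At 14 days elo-6 read 8.02, 7.79 and 7.77 in nZVI soil against 6.66, 6.86 and 6.98 in control soil. The groups stayed apart, and the gene rose by 1.03 ± 0.25 log2 units, 2.04-fold (adjusted p = 0.0149, limma). Without control array 1 the adjusted p was 0.0663 and without nZVI array 1 it was 0.0709, the upper end of a range that began at 0.000192. At 4 months the signals were 7.41, 7.54 and 7.17 in nZVI soil and 6.44, 7.03 and 7.41 in control soil, which overlap, and the difference was 0.42 ± 0.25 (adjusted p = 0.348).

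In the RefSeq gene table of assembly WBcel235, elo-5 and elo-6 lie near each other on chromosome IV with 3 protein-coding genes between them, F41H10.2, F41H10.1 and F41H10.12. The array annotation does not name a build, so no coordinates are given. Across the 18 arrays elo-5 and elo-6 correlated at 0.86 (Pearson r), and at 0.63 after the mean of each group was removed.

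Of the elongases of the polyunsaturated route, elo-2 was higher in nZVI soil and elo-1 was not called. The elo-2 signals at 0 days were 9.32, 9.49 and 9.02 in nZVI soil and 7.99, 7.95 and 8.30 in control soil. All 3 nZVI arrays stood above the controls, and the difference was 1.19 ± 0.17 log2 units, 2.29-fold (adjusted p = 9.45e-05, limma).

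At 14 days elo-2 read 8.81, 8.37 and 8.63 in nZVI soil and 8.17, 8.11 and 8.11 in control soil, and at 4 months 8.90, 8.91 and 8.68 in nZVI soil and 8.11, 8.61 and 8.42 in control soil. The groups were apart at both times by small margins. The differences, 0.47 ± 0.17 (adjusted p = 0.0934) and 0.45 ± 0.17 (adjusted p = 0.113), missed the threshold in limma. At 14 days the adjusted p was 0.0464 without nZVI array 2, in a range of 0.00103 to 0.322 over settings, and at 4 months it was 0.0352 without control array 2, in a range of 0.0352 to 0.936.

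The elo-1 signals at 0 days were 10.45, 10.46 and 10.61 in nZVI soil and 10.44, 10.54 and 10.79 in control soil, fully intermingled, with a difference of -0.08 (95% interval -0.46 to 0.29). At 14 days they were 10.77, 10.85 and 10.41 in nZVI soil against 10.44, 10.34 and 9.69 in control soil, where control array 3 was the lowest of the 18 values. The difference was 0.52 (95% interval 0.14 to 0.90, adjusted p = 0.0861, limma). It reached an adjusted p of 0.0493 without control array 1, and settings ranged from 0.0273 to 0.406. At 4 months elo-1 read 10.85, 10.94 and 10.87 in nZVI soil and 10.47, 10.69 and 10.51 in control soil, without overlap, with a difference of 0.32 and an adjusted p of 0.29.

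Of the remaining members, elo-9 rose at 0 days. Its log2 signals were 6.73, 6.66 and 6.10 in nZVI soil against 4.96, 5.08 and 5.48 in control soil, with no overlap. The difference was 1.32 ± 0.24 log2 units, 2.50-fold (adjusted p = 0.00126, limma).

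At 14 days elo-9 read 6.24, 5.72 and 6.47 in nZVI soil and 5.40, 5.77 and 5.59 in control soil, with nZVI array 2 inside the control values, and the difference was 0.55 (adjusted p = 0.206). At 4 months the signals were 5.53, 5.56 and 5.44 in nZVI soil and 4.58, 5.34 and 4.38 in control soil. Here control array 2 came close to the nZVI arrays, and the other controls, which are the narrow arrays, were about a log2 unit below. The difference was 0.74 (adjusted p = 0.0762, limma). It was 1.03 without control array 2 (adjusted p = 0.00542) and 0.17 without both narrow arrays (adjusted p = 0.991), and these values are the ends of the range over settings.

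The difference of elo-4 was 0.81 ± 0.37 at 0 days, 1.15 ± 0.37 at 14 days and 0.89 ± 0.37 at 4 months (adjusted p = 0.151, 0.0609 and 0.152 in limma). At 0 days its signals were 5.34, 4.92 and 5.29 in nZVI soil and 4.33, 4.40 and 4.39 in control soil. At 4 months they were 5.10, 5.04 and 5.44 in nZVI soil and 4.58, 4.37 and 3.96 in control soil. The groups did not overlap at these times.

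At 14 days the elo-4 signals were 6.04, 4.05 and 6.07 in nZVI soil and 4.30, 3.99 and 4.43 in control soil. Arrays 1 and 3 of nZVI soil carried the highest elo-4 values of the 18, and array 2 lay with the controls. The SD of elo-4 in nZVI soil was 1.15 at 14 days, 0.23 at 0 days and 0.22 at 4 months, and the fit uses 1 residual variance per gene for all groups. Without array 2 the difference at 14 days was 1.81 with an adjusted p of 1.47e-05. Over the 14 alternative settings the adjusted p ran from 5.33e-06 to 0.281, and elo-4 was called in 7. In 1 of these the rule was a 2-fold difference with an unadjusted p under 0.05, and the adjusted p was 0.0609 (limma). Averaged over the 3 times elo-4 rose by 0.95 ± 0.21 (adjusted p = 0.00348).

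The signals of elo-7 and elo-8 lay near the median of each array, which was 3.85 to 3.99. Those of elo-4 in control soil, with group means of 4.24 to 4.37, were not far above it. The same was true of its nZVI value of 4.05 at 14 days. The deposited table has no detection call, so it cannot be said whether these signals stood above background. The size of the elo-4 differences has the same limit. The elo-8 signals at 4 months were 4.11, 4.45 and 4.33 in nZVI soil and 3.58, 3.86 and 3.53 in control soil, without overlap. The gene rose by 0.64 ± 0.17 log2 units, 1.56-fold (adjusted p = 0.0259, limma).

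The adjusted p of elo-8 at 4 months passed the threshold upward when 1 array was left out: it was 0.0916 and 0.114 without control arrays 1 and 3, and 0.112 and 0.0836 without nZVI arrays 2 and 3. Without both narrow control arrays the elo-8 difference was 0.44 (adjusted p = 0.66), and settings began at 0.00838. At 0 days elo-8 read 4.18, 3.84 and 4.18 in nZVI soil and 4.09, 4.20 and 4.19 in control soil, and at 14 days 3.56, 3.83 and 3.58 in nZVI soil and 3.81, 3.48 and 3.19 in control soil. These groups overlapped, with differences of -0.10 (adjusted p = 0.773) and 0.16 (adjusted p = 0.67).

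For elo-7 the signals at 4 months were 4.88, 4.98 and 4.38 in nZVI soil and 3.78, 4.33 and 3.89 in control soil. They were apart by a narrow margin, with a difference of 0.75 (95% interval 0.14 to 1.35, adjusted p = 0.123, limma). At 0 days they were 4.24, 3.58 and 2.93 in nZVI soil and 3.95, 3.73 and 4.08 in control soil, and at 14 days 3.56, 4.49 and 3.74 in nZVI soil and 3.78, 3.89 and 3.59 in control soil. The nZVI arrays of both times spread over more than the range of the controls, and the differences were -0.34 (adjusted p = 0.497) and 0.18 (adjusted p = 0.807). In the WBcel235 gene table elo-7 and elo-1 are neighbours on chromosome IV with 0 protein-coding genes between them. The pair correlated at 0.53 over the 18 arrays and at 0.24 after removal of the group means.

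No elo-3 difference was called. The signals lay between 8.76 and 9.11 in nZVI soil and 8.68 and 8.87 in control soil at 0 days, between 8.53 and 8.71 in nZVI soil and 8.32 and 8.92 in control soil at 14 days, and between 8.71 and 8.90 in nZVI soil and 8.63 and 8.69 in control soil at 4 months. The differences were 0.20, 0.01 and 0.11, and their 95% intervals together ran from -0.30 to 0.51 log2 units.

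**Figure D2:**
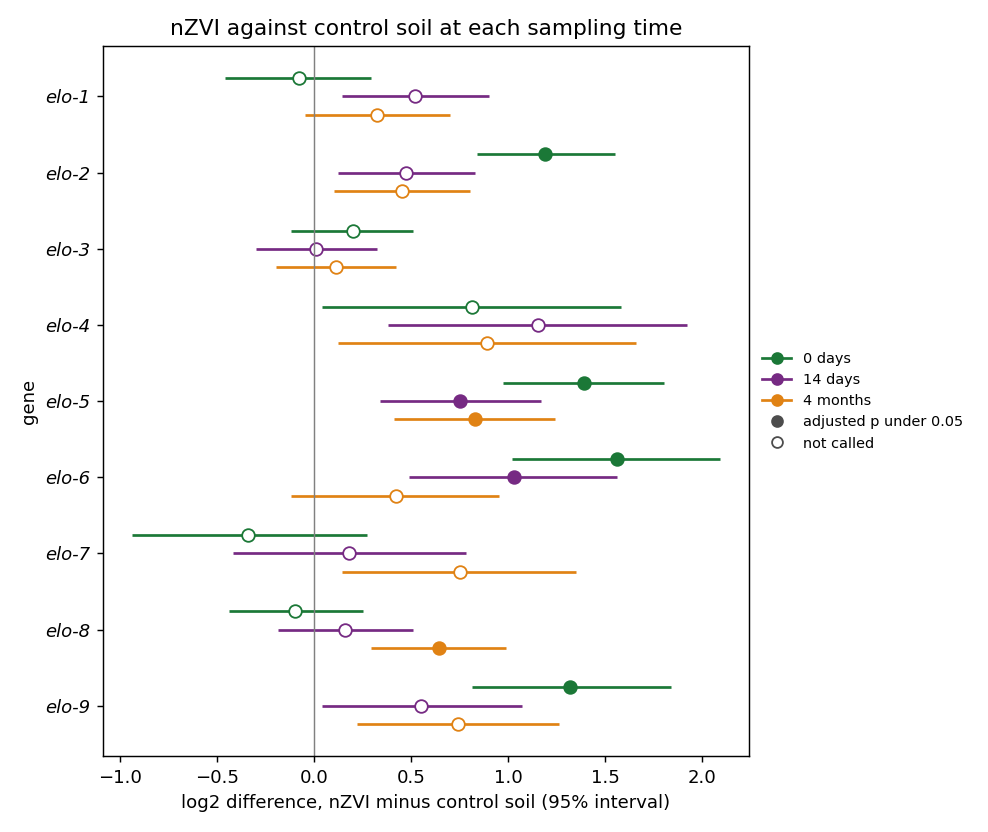
Log2 difference of nZVI minus control soil for each elongase at 0 days (green), 14 days (purple) and 4 months (orange), with 95% intervals from limma; filled points have an adjusted p under 0.05. elo-5 is filled at all 3 times, elo-6 at 0 and 14 days, elo-2 and elo-9 at 0 days, and elo-8 at 4 months.

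Averaged over the 3 times, 5 of the 9 elongases were called, all of them higher in nZVI soil, where 20.1% of all probe sets were called in either direction. Beside elo-4 these were elo-2 (0.71 ± 0.10, adjusted p = 3.94e-05), elo-5 (0.99 ± 0.11, adjusted p = 6.48e-06), elo-6 (1.00 ± 0.15, adjusted p = 8.44e-05) and elo-9 (0.87 ± 0.14, adjusted p = 0.000222, limma). The averages of elo-1 (0.25, adjusted p = 0.0966), elo-3 (0.11, 0.444), elo-7 (0.20, 0.47) and elo-8 (0.24, 0.0937) did not pass. The average uses the same arrays as the 3 comparisons above.

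Whether the nZVI difference itself changed between times was tested as an interaction. By limma no elongase passed in any of the 3 tests of change, where 1.05% of all probe sets passed between 0 and 14 days, 4.32% between 0 days and 4 months and 1.36% between 14 days and 4 months. At an unadjusted p under 0.05 there were 4, 4 and 0 elongases, where 15.8%, 20.7% and 18.8% of all probe sets passed. Between 0 days and 4 months the changes were -1.14 for elo-6 (95% interval -1.90 to -0.38, adjusted p = 0.0823), -0.75 for elo-2 (-1.24 to -0.25, 0.0828), 0.74 for elo-8 (0.25 to 1.23, 0.084) and 1.08 for elo-7 (0.23 to 1.94, 0.138). Leaving out 1 array changed these calls. elo-6 passed without control array 1 of 4 months (-1.40, adjusted p = 0.0353) or nZVI array 3 of 0 days (-1.49, 0.0128), elo-7 without nZVI array 1 of 0 days (1.41, 0.0404), and elo-8 without control array 2 of 4 months (0.84, 0.0319). Over the alternative settings the adjusted p ran from 0.0128 to 0.198 for elo-6, 0.044 to 0.191 for elo-2, 0.0319 to 0.44 for elo-8 and 0.0404 to 0.566 for elo-7. So the calls at some times and not at others are not shown to differ between times.

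Within nZVI soil, later times were set against 0 days. At 14 days elo-2 fell by 0.67 log2 units (adjusted p = 0.0169) and elo-6 fell by 0.86 (adjusted p = 0.0429, limma), 2 of 9, where 4.67% of all probe sets fell. At 4 months elo-6 fell by 1.35, to a mean of 7.37 ± 0.19 against 8.72 ± 0.61 at 0 days (SD, n = 3 each; limma adjusted p = 0.00111). Also at 4 months elo-9 fell by 0.99, to 5.51 ± 0.06 against 6.50 ± 0.35 (limma adjusted p = 0.00763, n = 3 each). In this comparison 10.2% of all probe sets fell.

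In the same comparison elo-7 rose by 1.16 log2 units, to 4.75 ± 0.32 at 4 months against 3.58 ± 0.66 at 0 days (SD, n = 3 each; limma adjusted p = 0.00705), where 12.0% of all probe sets rose. Whether the elo-7 signals stood above background cannot be said, and the size of this rise has the same limit. These 3 calls between 4 months and 0 days held without each array in turn. The calls at 14 days did not: elo-2 lost its call without 0-day array 1 (adjusted p = 0.0617), 0-day array 2 (0.0946) or 14-day array 2 (0.0689), and elo-6 without 0-day array 1 (0.184), 0-day array 2 (0.192), 14-day array 1 (0.0631), 14-day array 2 (0.0997) or 14-day array 3 (0.116). Over the alternative settings it ran from 0.0103 to 0.0946 for elo-2 and from 0.00307 to 0.192 for elo-6. Without 14-day array 2, elo-4 was 0.87 higher at 14 days than at 0 days (adjusted p = 0.0113). Without 0-day array 3, elo-2 (-0.58, adjusted p = 0.0326) and elo-5 (-0.66, adjusted p = 0.0358) were also lower at 4 months than at 0 days.

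Tissue markers moved in the same comparisons of nZVI soil. At 4 months against 0 days 8 of 8 germline, 6 of 8 oocyte and eggshell and 4 of 5 yolk markers rose. So did 4 of 8 muscle, 3 of 8 hypodermal, 3 of 8 sperm and 1 of 8 moulting markers. There 5 of 8 neuronal and 1 of 8 hypodermal markers fell. Of all probe sets 12.0% rose and 10.2% fell in this comparison. At 14 days against 0 days 3 of 8 germline, 3 of 8 oocyte and eggshell and 4 of 8 muscle markers rose. The same was true of 3 of 8 hypodermal, 1 of 5 yolk, 1 of 8 sperm and 1 of 8 moulting markers. Of the neuronal markers 1 of 8 fell, where 4.67% of all probe sets fell. Of 7 intestinal markers none rose at either time, and 1 fell at 4 months. Their part in the falls of elo-2, elo-6 and elo-9 and the rise of elo-7 was not tested.

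Between 4 months and 14 days in nZVI soil, elo-8 rose by 0.64 (adjusted p = 0.022, limma), 1 of 9 against 4.21% of all probe sets. This call was lost without 14-day array 1 (adjusted p = 0.106), 14-day array 3 (0.0943), 4-month array 2 (0.11) or 4-month array 3 (0.0675), and over the alternative settings it ran from 0.00105 to 0.11. Without 14-day array 2, elo-4 (-0.86, adjusted p = 0.00734), elo-7 (1.09, 0.0165) and elo-9 (-0.84, 0.0325) passed as well. In this comparison 4 of 8 sperm, 2 of 8 germline, 1 of 5 yolk and 1 of 7 intestinal markers rose. Beside them 1 of 7 intestinal, 1 of 8 hypodermal, 1 of 8 muscle and 1 of 8 moulting markers fell. The part of these markers in the elo-8 rise was not tested.

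In control soil 2 calls were made over time. At 14 days elo-8 fell by 0.67 against 0 days (adjusted p = 0.0164, limma), 1 of 9 where 6.08% of all probe sets fell, and it lost the call without 0-day array 2 (0.065), 14-day array 2 (0.0586) or 14-day array 3 (0.0749), with a range of 0.000988 to 0.0749. Beside it 2 of 8 sperm markers fell and 2 of 8 hypodermal, 2 of 8 moulting and 1 of 7 intestinal markers rose, and their part was not tested. At 4 months against 0 days none passed in limma and 9.71% of all probe sets did. At an unadjusted p under 0.05 there was 1 of 9, against 26.0% of all probe sets. Without 4-month array 2, elo-8 (-0.61, adjusted p = 0.0267) and elo-9 (-0.69, adjusted p = 0.046) passed.

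Between 4 months and 14 days in control soil elo-9 fell by 0.82 (adjusted p = 0.0268, limma), where 12.0% of all probe sets fell and the median probe set was higher by 0.11. It lost this call without 14-day array 2 (0.0962), 14-day array 3 (0.0664), 4-month array 1 (0.103) or 4-month array 3 (0.121), and was -0.24 without both narrow arrays (adjusted p = 0.786, the upper end of a range from 0.00159). Beside it 6 of 8 neuronal, 3 of 7 intestinal, 2 of 8 hypodermal, 2 of 8 moulting and 1 of 8 muscle markers fell. The markers that rose were 3 of 8 germline, 2 of 8 sperm and 1 of 8 oocyte and eggshell. Also higher were 1 of 8 muscle and 1 of 5 yolk markers. The part of these markers in the elo-9 result was not tested. The comparisons over time share arrays with the comparisons of soils, so they are not separate evidence of either.

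The order of the 6 groups differed by gene. For elo-5 the 3 nZVI groups came first, with 9.52 ± 0.30, 9.10 ± 0.11 and 9.02 ± 0.23 at 0 days, 14 days and 4 months, and the control groups followed, with 8.13 ± 0.14, 8.35 ± 0.25 and 8.19 ± 0.36 (SD, n = 3). Ordered by their means, neighbouring groups overlapped except across the step from nZVI to control soil. elo-6 had the same split, with 8.72 ± 0.61, 7.86 ± 0.14 and 7.37 ± 0.19 in nZVI soil and 7.17 ± 0.07, 6.83 ± 0.16 and 6.96 ± 0.49 in control soil, but there the nZVI arrays of 4 months overlapped the controls of 0 days. For elo-2 the means were 9.28 ± 0.24, 8.60 ± 0.22 and 8.83 ± 0.13 in nZVI soil and 8.08 ± 0.19, 8.13 ± 0.03 and 8.38 ± 0.25 in control soil, and nZVI soil at 14 days overlapped control soil at 4 months. For elo-9 control soil at 14 days (5.59 ± 0.19) came above nZVI soil at 4 months (5.51 ± 0.06), with overlap.

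Over the 18 arrays elo-2, elo-5 and elo-6 followed each other, with r of 0.88 for elo-2 and elo-5 and 0.84 for elo-2 and elo-6, and elo-9 correlated with elo-5 at 0.83. After removal of the group means these were 0.55, 0.63 and 0.54. elo-1 correlated with elo-8 at 0.67, and at 0.72 after that removal. The points share their hybridisation, their normalisation and, for the first values, the soil and time of their group.

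**Figure D3:**
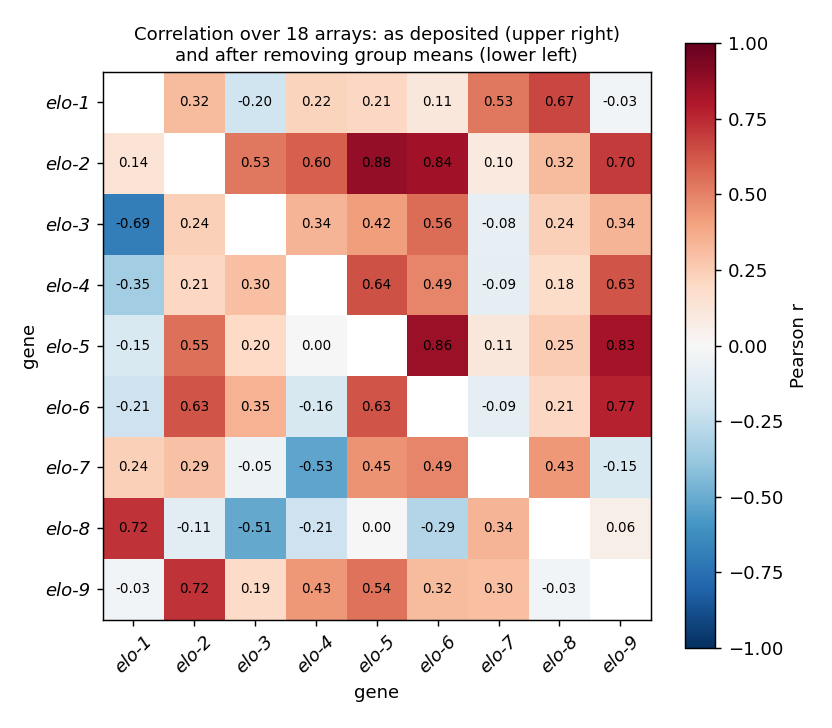
Pearson correlation of each pair of elongases over the 18 arrays, for the deposited values (upper right) and after subtraction of each group's mean (lower left). The warm block joins elo-2, elo-5, elo-6 and elo-9, with r of 0.88 for elo-2 and elo-5; elo-1 and elo-3 had r of -0.20 above and -0.69 below the diagonal.

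For each elongase called in a comparison of soils at 1 time, the named genes with the highest Pearson r over the same 18 arrays were listed. For elo-2 they were clc-13 (0.92), the peroxisomal acyl-CoA oxidase gene acox-3 (0.91) and C01G10.5 (0.90). elo-5 was followed by the inositol transporter gene hmit-1.3 (0.93), dach-1 (0.92) and the isocitrate dehydrogenase gene idh-2 (0.92). The 3 nearest to elo-6 were T05E12.3 (0.93), K09G1.1 (0.92) and the epoxide hydrolase gene ceeh-2 (0.91), and to elo-9 C44B7.11 (0.95), rnp-9 (0.94) and the anion transporter gene abts-1 (0.94). For elo-8 they were spe-18 (0.91), a gene named for defective sperm, Y54E2A.9 (0.90) and Y43F8A.2 (0.89).

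The other enzymes of the elongation cycle were all higher in nZVI soil in the average over times. The list held let-767, which encodes the ketoacyl-CoA reductase, hpo-8, the dehydratase, and art-1, the enoyl-CoA reductase, and all 3 of 3 rose in the average, by 0.47, 0.52 and 0.39 log2 units (adjusted p = 0.000134, 0.00237 and 0.00406, limma). Of all probe sets 20.1% were called in the average, in either direction. At single times 1, 2 and 2 of 3 rose at 0 days, 14 days and 4 months. Of all probe sets 8.22%, 3.60% and 4.77% rose at these times, and 7.74%, 5.39% and 2.30% fell. These shares also apply to the lists below. At 0 days let-767 read 6.30, 6.37 and 6.52 in nZVI soil and 5.92, 5.99 and 6.01 in control soil, a rise of 0.42 ± 0.13 (adjusted p = 0.0298). hpo-8 rose by 0.67 ± 0.19 at 14 days (adjusted p = 0.0312), and art-1 by 0.52 and 0.53 at 14 days and 4 months (adjusted p = 0.0374 and 0.0413). At 4 months let-767 rose by 0.62 ± 0.13 (adjusted p = 0.00665, limma). Without the narrow control arrays none of the 3 was called at 4 months in limma, with let-767 at 0.44 (adjusted p = 0.379) and art-1 at 0.53 (adjusted p = 0.455). The list's median difference was 0.42, 0.52 and 0.53 at the 3 times.

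The desaturases work alongside the elongases, putting in the double bonds of the unsaturated fatty acids. Of the 7 fat genes, 4 rose at 0 days, 3 at 14 days and none at 4 months, and none fell. At 0 days these were fat-1 (0.52 ± 0.13, adjusted p = 0.0116), fat-2 (0.50 ± 0.11, 0.00535), fat-3 (0.48 ± 0.12, 0.00885) and fat-5 (0.88 ± 0.28, 0.0389, limma), and at 14 days fat-1, fat-3 and fat-4. fat-3, the desaturase whose products are lengthened by ELO-1 and ELO-2, read 11.55, 11.39 and 11.39 in nZVI soil and 11.03, 10.88 and 10.96 in control soil at 0 days, apart without overlap. At 4 months its signals were 10.44, 10.39 and 10.23 in nZVI soil and 10.45, 10.26 and 10.38 in control soil, intermingled. fat-6 and fat-7, which desaturate stearic acid, were not called at any time. None of the 7 fat genes passed in any of the 3 tests of change of the nZVI difference between times. The signals of fat-5 at 0 days (means of 3.97 in nZVI soil and 3.09 in control soil) and of fat-7 at every time (means of 2.85 to 4.20) lay near or below the array medians, so whether these genes stood above background cannot be said, and the size of the fat-5 difference has the same limit.

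Genes around malonyl-CoA and fatty acid synthesis were lower in nZVI soil where they were called. The list held fasn-1, acly-1, acly-2, pod-2 and mlcd-1, which encodes the malonyl-CoA decarboxylase and so breaks malonyl-CoA down. Of the 5 none rose, and 3, 1 and none fell at 0 days, 14 days and 4 months. The nZVI difference moved upward for 2 of the 5 between 0 days and 4 months, where 4.32% of all probe sets passed in either direction. Between 14 days and 4 months it did so for 1 of the 5, against 1.36% (limma). fasn-1, the fatty acid synthase, read 10.26, 10.25 and 10.22 in nZVI soil and 11.49, 11.62 and 11.59 in control soil at 0 days. The arrays within each group lay close together, and fasn-1 fell by 1.32 ± 0.13 log2 units, to 0.401 of the control level (adjusted p = 3.06e-06, limma). At 14 days it read 10.30, 10.09 and 10.24 in nZVI soil and 11.50, 11.55 and 11.46 in control soil and fell by 1.29 ± 0.13 (adjusted p = 7.51e-06). At 4 months the values were 11.15, 11.05 and 10.96 in nZVI soil and 11.05, 11.53 and 11.30 in control soil, which overlap.

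The ATP-citrate lyase genes acly-1 and acly-2, which provide acetyl-CoA, fell by 0.60 and 0.68 at 0 days (adjusted p = 0.00994 and 0.0328, limma). The acetyl-CoA carboxylase gene pod-2, which makes malonyl-CoA, was not called at any time, and its lowest adjusted p was 0.0654, at 4 months with a difference of 0.42. So at 0 days elo-2, elo-5, elo-6 and elo-9 rose in the same arrays in which fasn-1, acly-1 and acly-2 fell.

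The branched-chain route starts from products of leucine breakdown. The list for this step also held ivd-1, whose enzyme uses up the primer isovaleryl-CoA. Of its 5 genes only bcat-1, the branched-chain aminotransferase, was called, and it fell at 14 days, with 11.42, 11.42 and 11.58 in nZVI soil and 11.94, 12.02 and 12.01 in control soil (-0.51 ± 0.14, adjusted p = 0.0278, limma). The other genes named for this list, ivd-1, bckd-1A and dbt-1, had differences of 0.43 at 4 months, 0.34 at 14 days and 0.27 at 14 days that did not pass (adjusted p = 0.154, 0.218 and 0.318). The medians of the list were -0.15, 0.27 and 0.04.

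Among 9 regulators of lipid genes, 1 rose and 1 fell at 0 days, none rose and 1 fell at 14 days, and 2 rose and none fell at 4 months. mdt-15, a Mediator subunit that drives fatty acid desaturase genes, rose by 0.59 ± 0.19 at 0 days (adjusted p = 0.0377, limma). scp-1, a relative of the sterol sensor that escorts SREBP, fell by 0.73 ± 0.17 at 0 days and by 0.66 at 14 days (adjusted p = 0.00587 and 0.017). At 4 months sbp-1, the worm SREBP, rose by 0.62 and the nuclear receptor gene nhr-80 by 0.67 (adjusted p = 0.0233 and 0.0224). For both, control arrays 1 and 3, the narrow ones, were the lowest, with sbp-1 at 7.29 and 7.27 and control array 2 at 7.96, while the nZVI arrays read 8.06, 8.07 and 8.24. Without the narrow arrays neither passed, with sbp-1 at 0.17 and nhr-80 at 0.30 (adjusted p = 0.917 and 0.811).

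Of 6 genes that place fatty acids into sphingolipids, 2 rose at 0 days, none at 14 days and 1 at 4 months, while sptl-3 fell at 14 days (-0.49 ± 0.15, adjusted p = 0.0446, limma). hyl-2, a ceramide synthase, read 9.62, 9.76 and 9.82 in nZVI soil and 8.38, 8.41 and 8.58 in control soil at 0 days and rose by 1.27 ± 0.22 log2 units, 2.42-fold (adjusted p = 0.000574). At 4 months hyl-2 rose by 0.88 (adjusted p = 0.0194), and without the narrow control arrays it was 0.56 (adjusted p = 0.519). sptl-1, a subunit of serine palmitoyltransferase, rose by 0.48 ± 0.13 at 0 days (adjusted p = 0.0156), and hyl-1, another ceramide synthase, was 0.67 higher with overlap (adjusted p = 0.075).

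**Figure D4:**
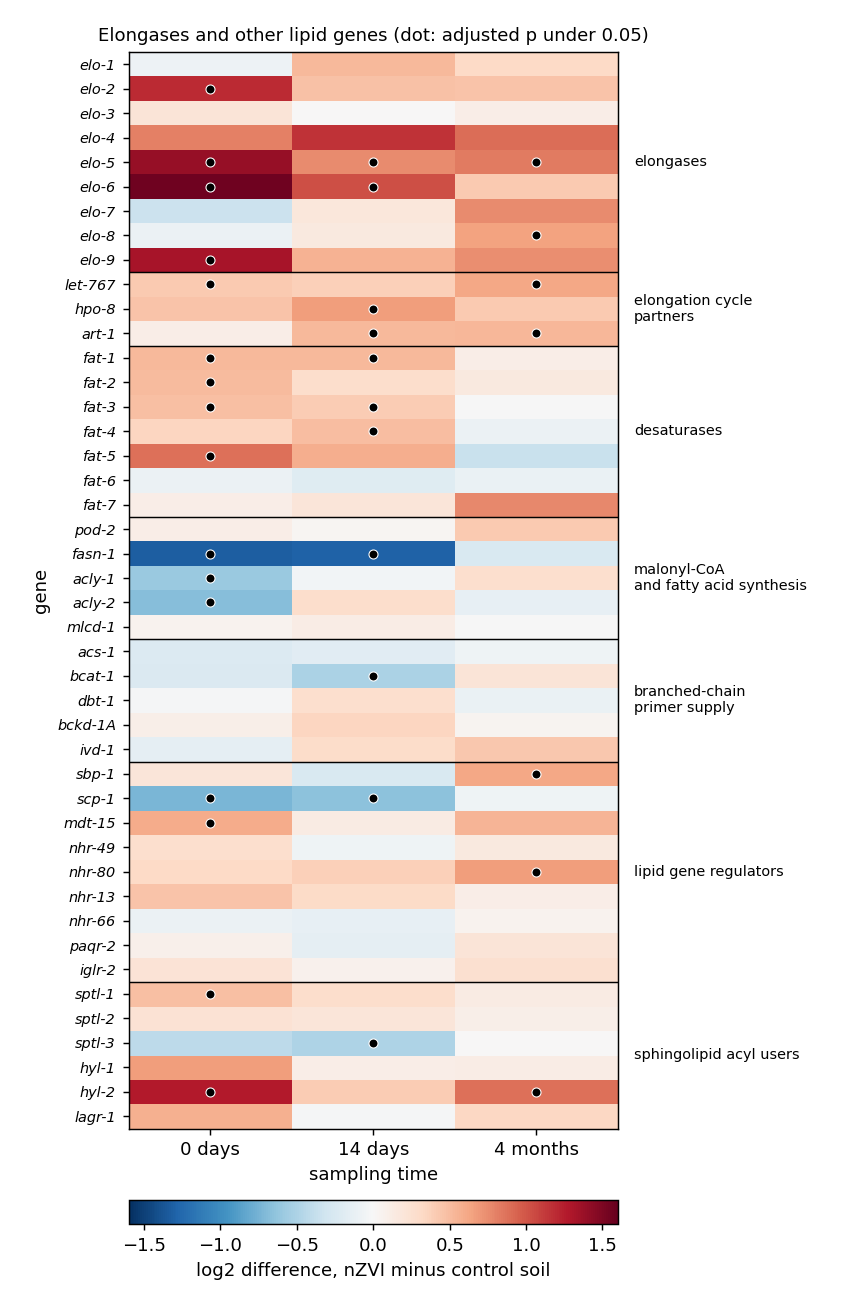
Log2 difference of nZVI minus control soil (colour) for the 9 elongases and 35 other lipid genes in 6 lists, at the 3 sampling times; a dot marks an adjusted p under 0.05 by limma. The elongase rows are mostly red, with elo-6 at 1.56 at 0 days, while fasn-1 is blue at 0 and 14 days, at -1.32 and -1.29.

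These are extracts of whole worms, so more cells of a tissue and more RNA per cell cannot be told apart, and marker lists of tissues and stages were read beside the elongases. Much elongase and desaturase activity of the worm is in the intestine, and 4, 3 and 3 of 7 measured intestinal markers rose in nZVI soil at 0 days, 14 days and 4 months, with none falling. Their summed linear signal per array was 8706 to 9400 in nZVI soil against 6331 to 6611 in control soil at 0 days, 7426 to 8705 against 5612 to 6182 at 14 days, and 6603 to 7788 against 4580 to 5548 at 4 months. The esterase gene ges-1 rose by 1.40, 1.15 and 1.19 log2 units at the 3 times (adjusted p = 0.000305, 0.00245 and 0.0039), whereas the intestinal transcription factor gene elt-2 had differences of 0.23, -0.56 and 0.02 that did not pass. Of the 8 listed intestinal markers opt-2 was not matched by symbol, and the part of the others in the elongase results was not tested.

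Of 8 markers of moulting 4, 1 and 4 rose at the 3 times and none fell, and their summed signal was 3473 to 5133 in nZVI soil against 1896 to 2532 in control soil at 0 days. At 14 days it was 3291 to 6624 against 3197 to 4036, and at 4 months 4646 to 5299 against 2817 to 3194. Of 8 hypodermal markers 2 rose and 2 fell at 0 days and 2 rose at each later time. Their sums were 5884 to 7250 in nZVI soil against 4206 to 4925 in control soil at 0 days. At the later times they were 4423 to 7700 against 5321 to 5451, and 6748 to 6988 against 4961 to 5394. Of 8 muscle markers 2, 3 and 2 rose. Their sums were 10989 to 13125 in nZVI soil against 9152 to 10538 in control soil at 0 days. At the later times they were 15745 to 16918 against 10947 to 12374, and 15467 to 15885 against 10267 to 12429. A linear sum weighs the brightest genes most. At 0 days the mean log2 signal of the hypodermal list overlapped between soils, at 7.56 to 7.94 against 7.65 to 7.73 in control soil. That of the muscle list overlapped too, at 9.82 to 10.13 against 9.69 to 9.88. At 4 months both were apart. Of 8 germline markers 3 fell at 0 days, with sums of 3733 to 4967 in nZVI soil against 5840 to 6618 in control soil, and none was called later. Of 5 measured yolk genes, which the adult intestine expresses, 0, 2 and 3 rose, with sums of 5616 to 6884 in nZVI soil against 4104 to 6660 in control soil, 9411 to 10716 against 5533 to 6032, and 10731 to 12131 against 4335 to 10832.

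At 4 months, where elo-8 rose, 2 of 8 sperm markers rose, spe-41 by 1.34 (adjusted p = 0.0081) and fer-1 by 0.81 (adjusted p = 0.0322, limma), and the summed sperm signal was 309 to 364 in nZVI soil against 214 to 252 in control soil. At 0 days, where elo-8 was not called, fer-1 fell by 0.89 (adjusted p = 0.00926), 1 of 8, with sums of 154 to 177 in nZVI soil against 196 to 215 in control soil, and at 14 days none was called, with sums of 144 to 239 against 155 to 162. The mean log2 signal of the sperm list was 3.74 to 4.69 per array, where the medians of the arrays were 3.85 to 3.99.

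Without the narrow control arrays, 3 of 5 yolk and 1 of 8 hypodermal markers were called at 4 months, and none of the 7 intestinal, 8 moulting, 8 muscle or 8 sperm markers was (limma). There spe-41 was at 0.73 and fer-1 at 0.54 (adjusted p = 0.581 and 0.709), and ges-1 at 0.61 (adjusted p = 0.376). None of the 8 oocyte and eggshell markers was called at any time, and of 8 neuronal markers 1 fell at 14 days. The part of these tissue and stage markers in the elongase differences was not tested.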

How the data were processed

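RNA of 18 worm samples was hybridised to C. elegans Gene 1.0 ST arrays, 1 array per sample. The authors deposited log2 signals per probe set; RMA and the Transcriptome Analysis Console are named, without versions, per the submitters' processing notes, and RMA would remove a change shared by most genes. Of 28387 probe sets 25546 had 1 gene symbol, 646 several and 2195 none in the platform table, and 25495 single symbols were matched to RefSeq through the Entrez ID. With 3 arrays per group, precision is set by their small number. Whether probes of related genes cross-hybridise was not given in the sources used here.

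The values were fitted with limma 3.58.1 in R 4.3.3 in 13 comparisons, after a test of the fit on simulated data. The fit used lmFit with 6 group coefficients and eBayes, two-sided, with Benjamini-Hochberg over all probe sets, called under 0.05. The simulated data had independent noise and covered only the comparison of soils at 0 days. They therefore do not bear on the narrow arrays of 4 months. All 9 members were named, up to 4 genes of each lipid list with the smallest p in a comparison of soils at 1 time, and the 3 genes most correlated with each called elongase; fat-5, fat-6 and fat-7 and the markers ges-1, elt-2, spe-41 and fer-1 were added after their values were seen. The members and lists were chosen with earlier results of these data known. Alternatives were other scalings, filters, thresholds, variance models, a replicate block and leaving out arrays. The main fits did not pair arrays, and the replicate block was used only as an alternative, in every comparison. As a check, deviations from group means were correlated between same-numbered arrays. Between the soils at 4 months all 3 pairs were above 0.1 (r 0.104 to 0.374). So were those between 14 days and 4 months in nZVI soil (0.108 to 0.209), and those of no other comparison. Weaker positive values in every pair were seen between the soils at 0 days (0.0224 to 0.226) and 14 days (0.0261 to 0.155). The same was seen between 14 days and 4 months in control soil (0.0616 to 0.0977). Arrays of unlike number reached 0.369 between 0 and 14 days in nZVI soil. They reached 0.364 between 0 days and 4 months in control soil. Between the soils at 4 months arrays of unlike number ran from -0.336 to 0.103. The labels name no shared batch. No sequences were used here.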

Additional observations from a re-analysis of the deposited data

How the results depend on the processing

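The 4 calls at 0 days held in all 14 alternative settings, with log2 differences of 1.09 to 1.32 for elo-2, 1.26 to 1.55 for elo-5, 1.37 to 1.91 for elo-6 and 1.21 to 1.52 for elo-9. Over all combinations of gene, comparison and alternative setting, 1843 kept their side of the threshold, 56 lost and 50 gained a call. No called value changed sign. Results not called in either fit are counted among those kept, so these counts do not measure how stable the calls were. The causes of the following moves were not tested, beyond what fewer arrays or genes imply. At 14 days the count of elongases called was 4 with median centring, 4 with quantile normalisation, 5 with array weights and 4 with the replicate block, against 2. With that block elo-1 and elo-4 were added (adjusted p = 0.0273 and 0.0285), elo-1 also in the average over times (0.0317); the block changed no call at 4 months, where the numbers may pair the arrays. At 4 months the count was 4 with array weights, 1 among probe sets at or above the median brightness, which leaves out elo-8, and 0 with the compared groups alone, with a 2-fold threshold, or without the 2 narrow control arrays, a choice made after seeing the data. The 2-fold threshold asked for a 2-fold difference and an unadjusted p under 0.05, in place of the adjusted p. It also gave 0 for the average and, in each soil, for 14 days against 0 days and 4 months against 14 days. For the change of the nZVI effect between 0 days and 4 months it gave 2, elo-6 and elo-7. Their adjusted p was 0.0823 and 0.138 (limma). For the same change quantile normalisation gave 1 and array weights 3. For nZVI soil the count was 1 with median centring and 0 with the compared groups alone at 14 days against 0 days; it was 5 with array weights at 4 months against 0 days, and 3 with array weights and 0 among the brighter probe sets at 4 months against 14 days. For control soil it was 3 with array weights and 0 among the brighter probe sets at 14 days against 0 days, and 0 with quantile normalisation, with the compared groups alone or without the narrow arrays at 4 months against 14 days. Leaving out 1 array gave 0 to 4 calls at 14 days and at 4 months, 0 to 1 for the change between 0 days and 4 months, 0 to 2, 3 to 5 and 0 to 4 for nZVI soil at 14 days against 0 days, 4 months against 0 days and 4 months against 14 days, and 0 to 1, 0 to 2 and 0 to 1 for the same comparisons in control soil.

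Over all probe sets, array weights raised the count at 14 days to 6846, against 2552, and at 4 months to 3394, against 2009, while the compared groups alone gave 382 at 4 months. The share of higher calls moved by over 10 points with median centring: it was 50.6%, against 40.1%, for the soils at 14 days, 57.6%, against 68.7%, for the change between 0 days and 4 months, 74.8%, against 86.0%, for the change between 14 days and 4 months, 38.3%, against 49.3%, for 4 months against 14 days in nZVI soil, and 46.8%, against 34.8%, for 4 months against 0 days in control soil. Quantile normalisation gave 57.8% for the change between 0 days and 4 months and 45.7% for 4 months against 0 days in control soil. Among the brighter probe sets the last share was 24.0%, and for 4 months against 14 days in control soil it was 32.2%, against 42.7%.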
